A study of Mus musculus with 24 samples.

Results

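The genes described here encode 3 families of the extracellular matrix, the collagen chains, the laminin chains and the fibulins, together with fibronectin, the nidogens and perlecan. They were taken by symbol from the protein-coding genes of the count table, with at least 10 counts summed over the 24 libraries. Of 55421 genes in the table, 62 met this rule. These were 43 collagen chains, 11 laminin chains, 4 fibulins and the 4 genes Fn1, Nid1, Nid2 and Hspg2. Col28a1, with 9 counts, was the 1 symbol that fell short, and Col4a3, with 25 counts, was the lowest inside.

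Laminins and collagen IV each assemble into a sheet, and nidogens and perlecan join the sheets into the basement membrane. In brain, basement membranes surround endothelial cells, pericytes and smooth muscle and underlie the astrocyte endfeet and the meninges. Fibrillar collagens such as types I and III are laid down mostly by fibroblasts of the meninges and larger vessels, while some other collagens are made by neurons and glia. Fibronectin is an adhesive glycoprotein bound by integrins, and fibulins take part in the assembly of elastic fibres and vessel walls.

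The left hemisphere of 24 mice aged 3 months was profiled in 4 groups of 6 animals, which were Nox2 knockout after lipopolysaccharide (LPS), Nox2 knockout after saline (PBS), wild type after LPS and wild type after PBS. Each mouse received 4 daily intraperitoneal injections of 100 µl, with LPS of Salmonella abortus equi at 1 µg per g body weight per day. All libraries carry the strain label C57BL/6J, and the labels do not give the knockout allele. Nox2, encoded by Cybb, is the membrane enzyme with which phagocytes make superoxide, and the study's title asks about its part in neurodegeneration after repeated LPS.

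Libraries held 2340184 to 5256169 3′ tags, and levels are given per 1000000 tags of a library (CPM). Cybb stood at 71.9 ± 4.50 CPM (SD, n = 6) in knockout LPS, 67.5 ± 5.08 in knockout PBS, 24.6 ± 8.07 in wild type LPS and 1.48 ± 0.644 in wild type PBS. Tags at the 3′ end do not show whether the coding part is intact, so the genotypes rest on the labels. Wild type LPS replicates 1 and 2 stood apart from the other 4, with 5.07 and 5.39% of counts on mitochondrial ribosomal RNA genes, against 3.39 to 3.60% in those 4. In the other groups this share ran from 3.49 to 4.71%. Replicate 4 of the knockout LPS group held 2137 CPM of 6 pituitary marker genes (Lhb at 0), against a highest value of 46.1 CPM among the wild type LPS libraries and 30.7 CPM among the knockout PBS libraries. For the 62 genes, results are given without these libraries where that changed a call. Markers of neurons, summed over 8 genes, stood at 4550 CPM or more in every library, as they should in brain.

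Col4a1 and Col4a2, which LPS raised in both genotypes and which were lower in knockout after LPS, lie head to head on chromosome 8. Their windows of 250 bases before and 50 bases from the annotated start are shown, as given by RefSeq for GRCm38.p6, since the pair was called in the same direction in every comparison that called either gene. Capitals mark GC boxes (GGGCGG on either strand) and CCAAT boxes (CCAAT on either strand).
Col4a1, chr8:11312777-11313076, minus strand: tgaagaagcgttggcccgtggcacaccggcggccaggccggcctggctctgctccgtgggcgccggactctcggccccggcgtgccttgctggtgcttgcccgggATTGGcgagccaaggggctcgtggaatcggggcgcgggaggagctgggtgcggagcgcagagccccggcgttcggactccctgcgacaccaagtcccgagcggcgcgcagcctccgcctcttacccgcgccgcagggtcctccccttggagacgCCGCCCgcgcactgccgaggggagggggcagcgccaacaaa
Col4a2, chr8:11312555-11312854, plus strand: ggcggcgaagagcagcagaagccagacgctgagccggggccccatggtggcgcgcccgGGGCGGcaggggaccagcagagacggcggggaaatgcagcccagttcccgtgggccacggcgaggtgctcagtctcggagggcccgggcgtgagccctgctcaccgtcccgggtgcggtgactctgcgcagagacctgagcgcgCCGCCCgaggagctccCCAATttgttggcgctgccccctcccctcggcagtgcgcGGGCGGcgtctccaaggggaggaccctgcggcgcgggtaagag
The starts are 21 bases apart and the windows share 78 bases. GC content is 74.0% for Col4a1 and 73.7% for Col4a2. The Col4a1 window holds 1 GC box and 1 CCAAT box, and that of Col4a2 holds 3 and 1. The GC box of Col4a1 lies in the shared bases and is the same site as the last GC box of Col4a2. Neither holds TATAAA, the AP-1 letters TGANTCA or the CRE letters TGACGTCA. Of the 45 of 62 member genes with a RefSeq window, 66.7% hold a GC box, against 38.2% of 27025 genes with one. Those 27025 include genes that were not tested here and genes that do not code for protein, so the sets are unlike. The shares are 37.8% against 41.1% for CCAAT, 11.1% against 15.7% for TATAAA, 2.22% against 8.97% for TGANTCA and 2.22% against 2.03% for TGACGTCA. A match is a run of letters and was not tested as a binding site.

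A shared sequence was also looked for in the 3′ untranslated regions. The miR-29 family is known to repress collagen genes in several organs, and its mature members share 1 seed, bases 2 to 8, shown in capitals (RefSeq, GRCm38.p6).
mmu-miR-29a-3p: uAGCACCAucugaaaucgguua
mmu-miR-29b-3p: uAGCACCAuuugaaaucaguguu
mmu-miR-29c-3p: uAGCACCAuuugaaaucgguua
The letters that pair with this seed, TGGTGCT, occur in the annotated 3′ untranslated region of 18 of the 43 member genes tested, or 41.9%. Among all 12806 tested genes with such a region the share is 16.2%. The median length of the region is 966 bases in the member genes and 1287 in all, so the member genes do not have longer regions. By family over all 62 member genes, a match occurs in 25 of 43 collagen chains, in 1 of 11 laminin chains and in none of the other 8. Sites of 29 bases around the match (capitals, GRCm38) are shown for the genes that are described most below.
Col4a1, chr8:11199751-11199779, minus strand: ccgtcacaacaTGGTGCTactcccccccc
Col4a2, chr8:11448348-11448376, plus strand: gaaggccacgtTGGTGCTtatccttctgt
Col4a2, chr8:11448519-11448547, plus strand: cacacccagctTGGTGCTtactcttaact
Col3a1, chr1:45348971-45348999, plus strand: aaatgtctcaaTGGTGCTataataaataa
Col1a1, chr11:94952527-94952555, plus strand: gaaggaatttcTGGTGCTatagaagctga
Lamc1, chr1:153220058-153220086, minus strand: atctgacacacTGGTGCTattaattattt
With all families pooled, a match was no more frequent among the genes that rose after LPS. It occurs in 6 of the 16 tested member genes called higher after LPS in either genotype (37.5%) and in 12 of the 27 called higher in neither (44.4%). The genes that rose include many laminin, fibulin and linker genes, families that rarely hold a match. The pooled shares therefore do not compare collagen chains with collagen chains. Of the collagen chains that rose, Col3a1, Col4a1, Col4a2, Col5a3 and Col6a2 hold a match, and Col1a2 and Col6a1 do not. These shares are descriptions, and the mature miRNAs were not measured by this assay.

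LPS raised Fn1, Hspg2, Nid1, Col4a1, Col4a2, Lama4, Lamb2, Fbln1, Fbln5 and Col3a1 in both genotypes, and most collagens outside type IV were not called. The summed level of the 62 genes was 607 ± 35.1 CPM (SD, n = 6) in knockout LPS and 416 ± 34.7 CPM in knockout PBS. In wild type it was 641 ± 30.6 CPM after LPS and 447 ± 17.2 CPM after PBS. The lowest LPS library in either genotype, at 545 CPM, lay above the highest PBS library, at 466 CPM.

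Of the 62 genes, 43 had enough counts for the test, an edgeR quasi-likelihood fit over all 14380 tested genes in which a gene is called at a Benjamini-Hochberg adjusted p under 0.05. In knockout, LPS raised 15 of the 43 and lowered 0. Over all tested genes, 7.05% were called higher and 3.82% lower in knockout. In wild type, LPS raised 11 of the 43 and lowered 2, where 10.9% of all tested genes were called higher and 7.12% lower. The median log2 fold change of the 43 was 0.39 in knockout and 0.26 in wild type, while over all tested genes it was -0.002 in knockout and -0.009 in wild type. Every LPS library lay above every PBS library in 10 of the 43 in knockout (4.19% of all tested genes) and in 8 of the 43 in wild type (5.99%). The only gene with every LPS library below every PBS library was Col7a1, in wild type (1.83% of all tested genes in wild type, 1.62% in knockout). The 43 that passed the filter are not all 62, and the other 19 are described further on. Each library came from a separate animal per the design text.

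**Figure D1:**
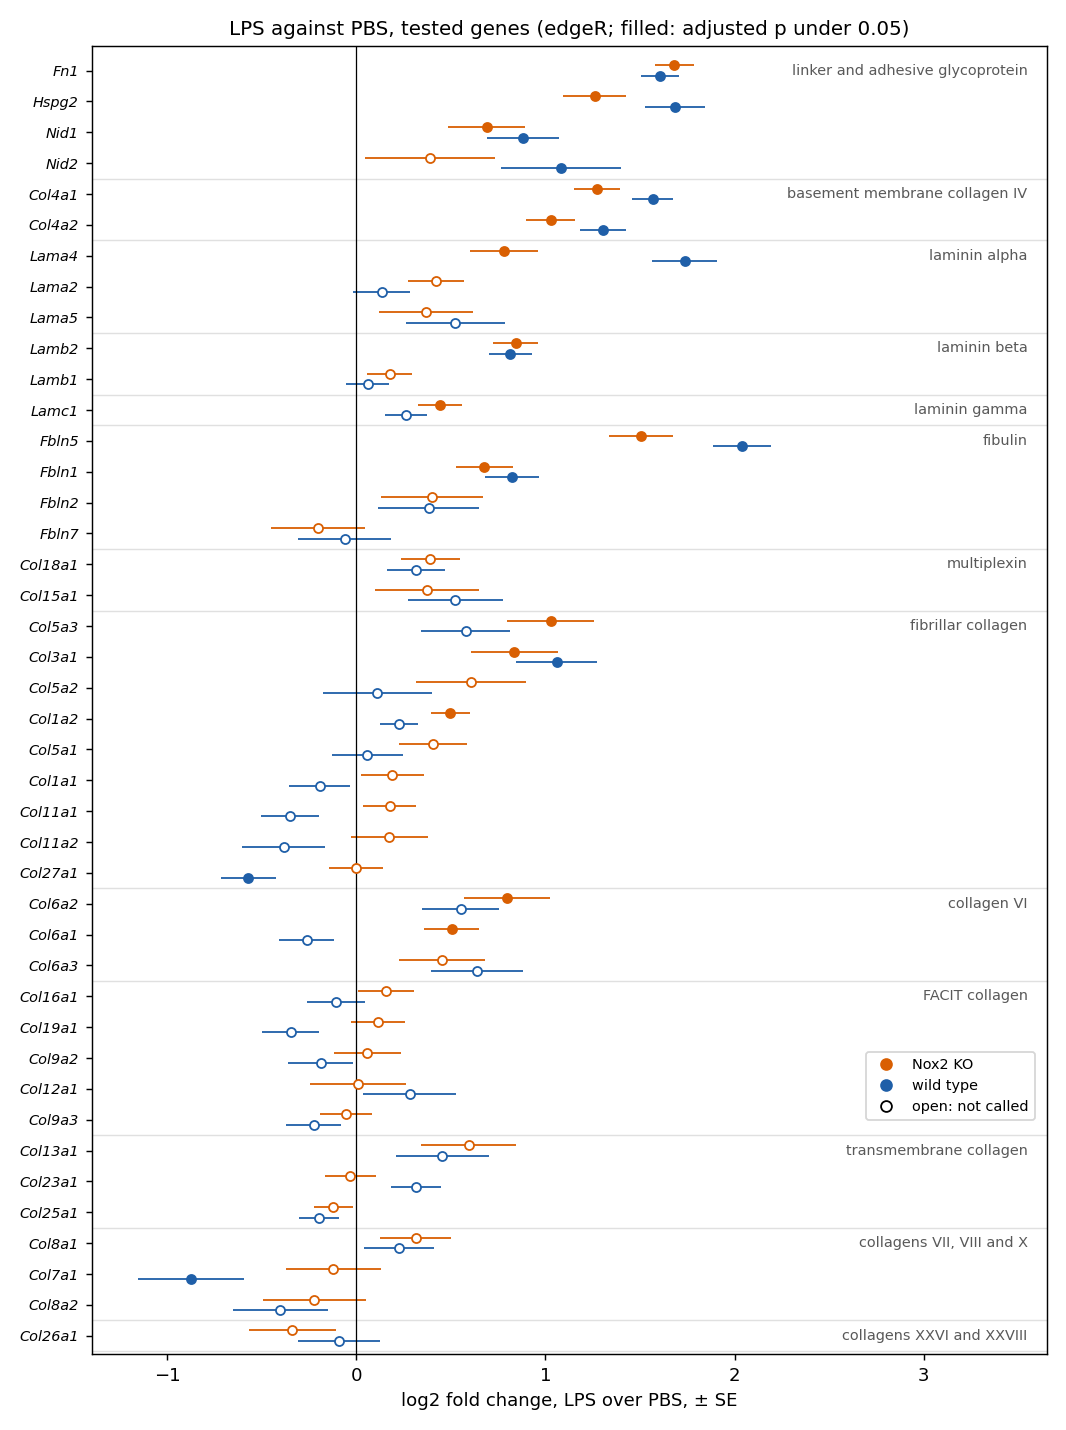
Log2 fold change of LPS over PBS with its standard error for the tested genes, 1 left out, by class, in Nox2 knockout (orange) and wild type (blue); filled points passed an adjusted p of 0.05 in edgeR. The linker, collagen IV, Lama4, Lamb2 and upper fibulin genes lie to the right of 0 in both genotypes, and the fibril-associated (FACIT) and transmembrane collagens have no filled point.

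Fibronectin had the highest mean level of the 62 genes in both LPS groups, while Col1a2 had the highest in both PBS groups. Fn1 (chromosome 1, 71585520 to 71653200, minus strand, GRCm38) had a lowest, median and highest library of 65.1, 82.9 and 95.6 CPM in knockout LPS, against 20.2, 23.96 and 32.8 CPM in knockout PBS. In wild type, these were 74.3, 85.8 and 104 CPM after LPS and 21.5, 28.2 and 33.5 CPM after PBS. The LPS groups of the genotypes overlapped each other, and neither overlapped with its PBS group. On the log2 scale Fn1 rose by 1.68 ± 0.10 in knockout (SE, edgeR adjusted p = 2.98e-17) and by 1.61 ± 0.10 in wild type (adjusted p = 1.95e-17). Fibronectin is also a plasma protein made by liver, but the tags measure only RNA in the hemisphere.

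Perlecan and nidogen 1, which link the laminin and collagen IV sheets, rose in both genotypes, and nidogen 2 was called in wild type. Hspg2, the perlecan gene (chromosome 4, 137468769 to 137570630, plus strand), had 12.7, 17.96 and 25.9 CPM (lowest, median, highest) in knockout LPS and 5.14, 8.43 and 9.18 CPM in knockout PBS. In wild type it had 17.5, 26.9 and 30.9 CPM after LPS and 6.90, 7.96 and 8.25 CPM after PBS. The LPS and PBS groups did not overlap in either genotype, and the lowest wild type LPS values, 17.5 and 18.2 CPM, were those of replicates 2 and 1, the libraries that stand apart. The rise was 1.26 ± 0.17 in knockout (edgeR adjusted p = 1.44e-07) and 1.69 ± 0.16 in wild type (adjusted p = 8.16e-12).

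Nid1, nidogen 1 (chromosome 13, 13437551 to 13512269, plus strand), had 7.19, 10.8 and 13.5 CPM in knockout LPS and 4.19, 6.61 and 8.73 CPM in knockout PBS. In wild type, 5.16, 14.2 and 16.6 CPM were measured after LPS and 5.56, 6.76 and 9.35 CPM after PBS. The groups overlapped in both genotypes, in wild type through the LPS library of replicate 6 alone. The change was 0.69 ± 0.20 in knockout (edgeR adjusted p = 0.0173, 0.0626 without replicate 5 of the knockout PBS group) and 0.88 ± 0.19 in wild type (adjusted p = 0.0005). Nid2, nidogen 2, was lower in level, with 1.53 to 5.21 CPM in knockout LPS and 1.79 to 3.62 CPM in knockout PBS. It had 3.05 to 7.05 CPM in wild type LPS and 0.855 to 4.93 CPM in wild type PBS. Its change was called in wild type (1.08 ± 0.32, adjusted p = 0.0122), but not without replicate 3 of the wild type LPS group (adjusted p = 0.0588), nor in knockout (0.39 ± 0.34, adjusted p = 0.583). The 3′ end of Nid2 overlaps Rtraf on the opposite strand, which has 3648 counts to the 275 of Nid2, and the strand setting of the counting is not given in the sources used here, so values of Nid2 are uncertain.

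**Figure D2:**
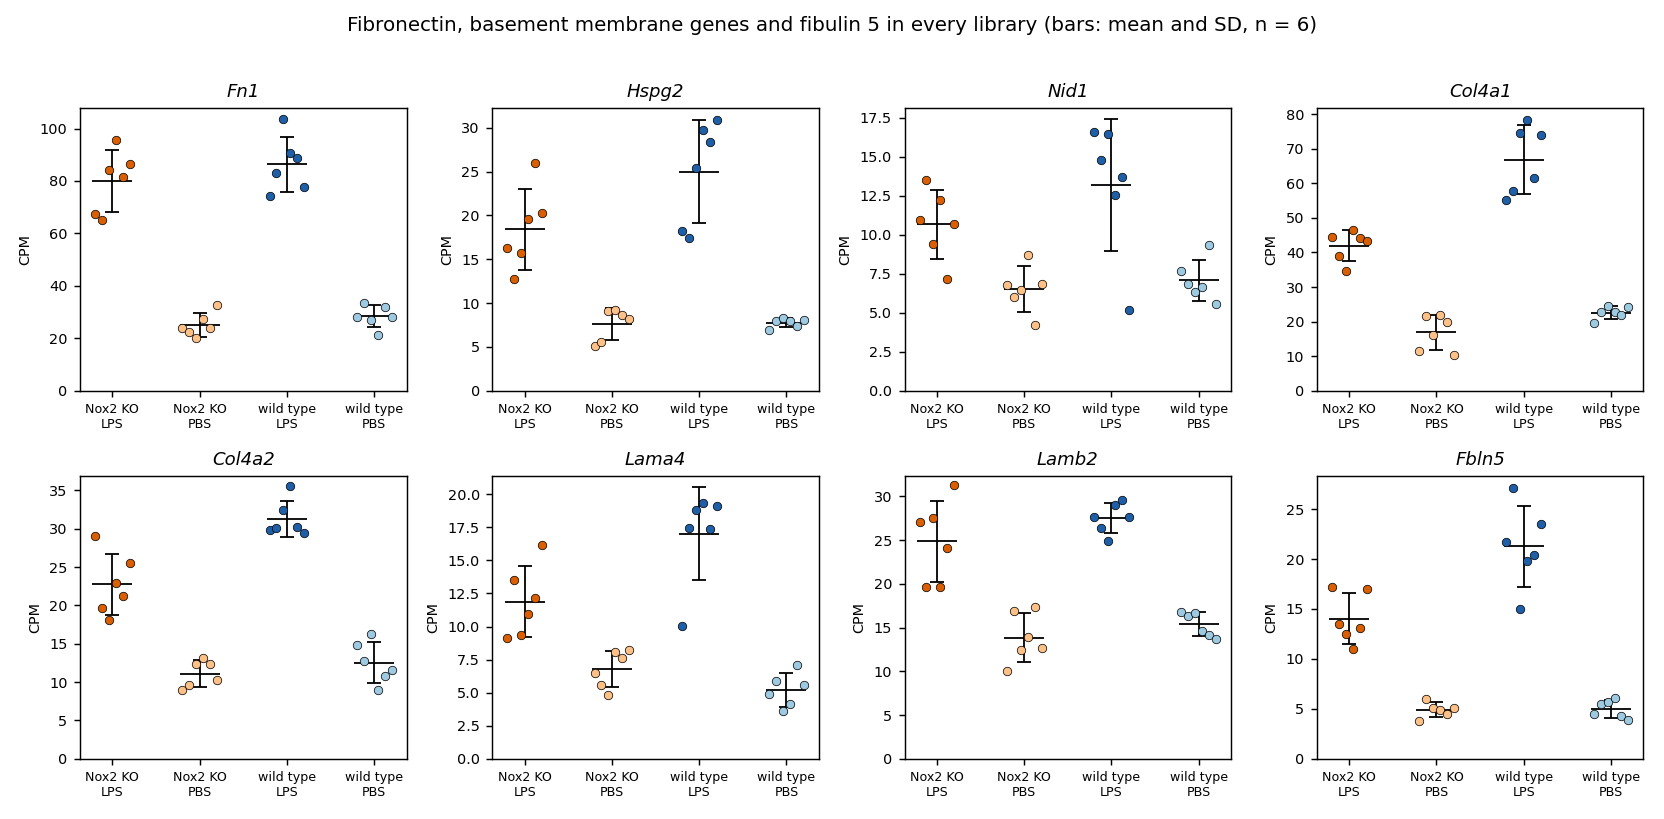
Level (CPM) of 8 genes in every library, with 1 point per animal and a bar for the mean and SD of 6 animals; groups run from Nox2 knockout LPS and PBS to wild type LPS and PBS. Fn1, Hspg2, Col4a1, Col4a2, Lama4, Lamb2 and Fbln5 do not overlap between LPS and PBS in either genotype, and Nid1 does in both.

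Collagen IV, the sheet-forming collagen of basement membranes, is encoded by 6 genes, of which Col4a1 and Col4a2 held nearly all tags. Col4a1 (chromosome 8, 11198423 to 11312826, minus strand) had 34.5, 43.7 and 46.6 CPM (lowest, median, highest) in knockout LPS and 10.3, 18.03 and 21.9 CPM in knockout PBS. It had 55.2, 67.8 and 78.3 CPM in wild type LPS and 19.5, 22.8 and 24.5 CPM in wild type PBS. All LPS libraries were above all PBS libraries, and all knockout LPS libraries were below all wild type LPS libraries, of which replicates 1 and 2 were the lowest at 55.2 and 57.8 CPM. The gain on the log2 scale was 1.27 ± 0.12 in knockout (edgeR adjusted p = 3.34e-11) and 1.57 ± 0.11 in wild type (adjusted p = 8.27e-16).

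Its neighbour Col4a2 (chromosome 8, 11312805 to 11449287, plus strand), whose chain forms trimers with that of Col4a1, followed the same order at a lower level. Its lowest, median and highest libraries were 18.1, 22.1 and 29.0 CPM in knockout LPS and 8.92, 11.3 and 13.2 CPM in knockout PBS. They were 29.4, 30.1 and 35.5 CPM in wild type LPS and 8.96, 12.1 and 16.3 CPM in wild type PBS. Again the LPS groups did not overlap with the PBS groups or with each other. LPS raised Col4a2 by 1.03 ± 0.13 in knockout (edgeR adjusted p = 6.35e-08) and by 1.31 ± 0.12 in wild type (adjusted p = 7.9e-12). The other 4 chains, which form the trimers of kidney, lung and some other basement membranes, had 25 to 135 counts each over the 24 libraries and were not tested.

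Among the laminins, which are trimers of an alpha, a beta and a gamma chain, Lama4 and Lamb2 rose in both genotypes. Lama4 encodes the alpha 4 chain of endothelial basement membranes (chromosome 10, 38965515 to 39110188, plus strand). It had 9.16, 11.6 and 16.2 CPM in knockout LPS against 4.84, 7.04 and 8.21 CPM in knockout PBS. Wild type libraries held 10.1, 18.1 and 19.3 CPM after LPS and 3.597, 5.24 and 7.09 CPM after PBS. LPS and PBS groups did not overlap in either genotype. The change was 0.78 ± 0.18 in knockout (edgeR adjusted p = 0.00142) and 1.74 ± 0.17 in wild type (adjusted p = 5.93e-11). Replicate 1 of the wild type LPS group, at 10.1 CPM, was far below the next library at 17.4 CPM.

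Lamb2, the beta 2 chain of vascular and pial basement membranes (chromosome 9, 108479736 to 108490530, plus strand), did so at a higher level. Knockout libraries held 19.6, 25.5 and 31.2 CPM after LPS and 10.004, 13.3 and 17.3 CPM after PBS. In wild type there were 24.9, 27.6 and 29.6 CPM after LPS and 13.7, 15.5 and 16.8 CPM after PBS. No LPS library reached down to the PBS range. The rise was 0.84 ± 0.12 in knockout (edgeR adjusted p = 4.29e-07) and 0.82 ± 0.11 in wild type (adjusted p = 2.07e-07).

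The remaining laminin chains moved less. Lamc1, the gamma chain shared by most laminins, had 15.3 to 20.9 CPM in knockout LPS and 11.9 to 15.1 CPM in knockout PBS, without overlap, and rose by 0.44 ± 0.12 (edgeR adjusted p = 0.00714). In wild type it had 16.9 to 20.8 CPM after LPS and 13.1 to 20.1 CPM after PBS, a change of 0.26 ± 0.11 that was not called (adjusted p = 0.103). Lama2, the alpha 2 chain found at astrocyte endfeet and around smooth muscle, had 9.38, 11.9 and 13.3 CPM in knockout LPS and 6.03, 8.33 and 10.2 CPM in knockout PBS. Its values in wild type were 6.77, 10.04 and 11.6 CPM after LPS and 7.62, 9.12 and 10.4 CPM after PBS. Neither change was called (0.42 ± 0.15 in knockout, edgeR adjusted p = 0.0622, and 0.14 ± 0.15 in wild type, adjusted p = 0.607). In knockout Lama2 was called without replicate 4 of the knockout LPS group, the library with pituitary markers (0.47, adjusted p = 0.046), and also without replicate 1 of that group (adjusted p = 0.0442) or replicate 5 of the knockout PBS group (adjusted p = 0.0425). Lamb1, the beta 1 chain, stood at 0.18 ± 0.12 in knockout and 0.06 ± 0.11 in wild type, and Lama5 at 0.37 ± 0.25 and 0.52 ± 0.26, and neither was called. Of the 7 laminin chains tested, LPS thus raised 3 in knockout and 2 in wild type.

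Fibulin 5 had the largest rise of all 43 genes in wild type. Fbln5, which is needed for elastic fibre assembly (chromosome 12, 101746565 to 101819055, minus strand), had 10.96, 13.3 and 17.2 CPM (lowest, median, highest) in knockout LPS and 3.79, 5.02 and 6.03 CPM in knockout PBS. After LPS wild type libraries held 15.03, 21.1 and 27.1 CPM, and after PBS 3.85, 4.98 and 6.05 CPM. The PBS groups overlapped each other, and both LPS groups lay above them. The log2 change was 1.51 ± 0.17 in knockout (edgeR adjusted p = 1.99e-09) and 2.04 ± 0.15 in wild type (adjusted p = 1.36e-14).

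Fbln1, fibulin 1 of vessel walls and basement membranes, had 8.48, 12.7 and 13.8 CPM in knockout LPS and 4.33, 7.95 and 9.58 CPM in knockout PBS. Wild type levels were 13.3, 14.5 and 16.2 CPM after LPS and 6.77, 8.58 and 9.62 CPM after PBS. The groups overlapped in knockout and did not in wild type. Fbln1 rose by 0.68 ± 0.15 in knockout (edgeR adjusted p = 0.00126) and by 0.82 ± 0.14 in wild type (adjusted p = 2.15e-05). Fbln2 and Fbln7 were not called, at 0.40 ± 0.27 and -0.20 ± 0.25 in knockout and 0.38 ± 0.27 and -0.06 ± 0.25 in wild type.

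Fibrillar collagens did not follow the basement membrane genes as a class. Of the 9 tested, LPS raised 3 and lowered 0 in knockout, with a median of 0.41, and raised 1 and lowered 1 in wild type, with a median of 0.06. Col3a1, the type III chain of vessel walls, rose in both genotypes, by 0.84 ± 0.23 in knockout (edgeR adjusted p = 0.00982) and by 1.06 ± 0.21 in wild type (adjusted p = 0.000208). Its libraries held 4.37, 5.09 and 6.37 CPM in knockout LPS and 1.79, 3.02 and 3.62 CPM in knockout PBS. In wild type they held 3.76, 6.77 and 8.22 CPM after LPS and 1.97, 3.08 and 3.97 CPM after PBS. The knockout groups did not overlap, and the wild type groups did by a single LPS library.

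Type I collagen, the main fibrillar collagen of fibroblasts, was among the most abundant but changed little. Col1a2 had 32.4, 37.4 and 45.4 CPM in knockout LPS and 19.4, 28.0 and 38.0 CPM in knockout PBS. In wild type it had 34.6, 39.2 and 40.6 CPM after LPS and 27.1, 34.2 and 37.4 CPM after PBS. The groups overlapped in both genotypes, and the change was called only in knockout (0.50 ± 0.11, edgeR adjusted p = 0.00056, against 0.23 ± 0.10 in wild type, adjusted p = 0.123). The test of the difference between those changes did not call it (0.27 ± 0.15, adjusted p = 0.562). Col1a1, whose chain joins that of Col1a2 in the same trimer, stood at 0.19 ± 0.17 in knockout and -0.19 ± 0.16 in wild type, with libraries of 12.1 to 20.9 CPM in knockout LPS, 10.1 to 21.2 CPM in knockout PBS, 11.9 to 16.4 CPM in wild type LPS and 12.1 to 21.0 CPM in wild type PBS. Type V collagen starts fibrils, and of its 3 chains Col5a3 was called in knockout (1.03 ± 0.23, adjusted p = 0.00124) and stood at 0.58 ± 0.24 in wild type (adjusted p = 0.0862).

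In wild type, LPS lowered Col27a1 and Col7a1, and neither was called in knockout. Col27a1, a fibrillar collagen known from cartilage, had 13.0 to 16.2 CPM in knockout LPS and 10.5 to 17.9 CPM in knockout PBS, and 9.13 to 15.9 CPM in wild type LPS and 12.8 to 20.9 CPM in wild type PBS. It fell by 0.57 ± 0.14 in wild type (edgeR adjusted p = 0.00339) and stood at -0.002 ± 0.143 in knockout. Col7a1, the collagen of skin anchoring fibrils, had 0.938 to 5.36 CPM in knockout LPS and 2.40 to 5.15 CPM in knockout PBS, against 1.45 to 2.60 CPM in wild type LPS and 2.99 to 4.25 CPM in wild type PBS. It fell by 0.88 ± 0.28 in wild type (adjusted p = 0.0227), a call that ended without replicate 4 or without replicate 6 of the wild type LPS group (highest adjusted p = 0.0611), and stood at -0.12 ± 0.25 in knockout. Without wild type LPS replicates 1 and 2, Col11a1 (-0.56), Col19a1 (-0.53) and Col9a3 (-0.43) were also called lower in wild type, and Col6a3 (0.71) higher.

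Type VI collagen forms beaded filaments around cells. Its chains Col6a1 and Col6a2 were called in knockout, at 0.50 ± 0.15 (edgeR adjusted p = 0.0149) and 0.80 ± 0.23 (adjusted p = 0.0141), of which Col6a1 lost the call without replicate 3 of the knockout LPS or of the knockout PBS group (highest adjusted p = 0.0558). Col6a2 lost it without replicate 4 of the knockout LPS group, the library with pituitary markers (0.65, adjusted p = 0.0746), or replicate 2 of the knockout PBS group (adjusted p = 0.0544). Col6a1 had 10.8, 16.1 and 18.1 CPM in knockout LPS and 8.07, 10.6 and 13.0 CPM in knockout PBS. In wild type it had 7.48, 11.8 and 14.3 CPM after LPS and 10.5, 14.2 and 15.4 CPM after PBS. The medians lay in opposite order in the genotypes, and Col6a1 was not called in wild type (-0.26 ± 0.15, adjusted p = 0.233). Col6a2 stood at 0.55 ± 0.20 in wild type (adjusted p = 0.0542) and Col6a3 at 0.45 ± 0.23 in knockout and 0.64 ± 0.24 in wild type (adjusted p = 0.244 and 0.0638).

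The other collagen classes had no call after LPS apart from Col7a1. Col18a1, the multiplexin of basement membranes from which endostatin is cut, had 11.6, 14.1 and 15.03 CPM in knockout LPS and 6.46, 10.2 and 14.0 CPM in knockout PBS. It had 10.7, 12.8 and 19.5 CPM in wild type LPS and 8.46, 11.3 and 13.9 CPM in wild type PBS, with overlap in both genotypes. The changes were 0.39 ± 0.16 in knockout and 0.32 ± 0.15 in wild type (edgeR adjusted p = 0.115 and 0.158), and its 3′ end overlaps Slc19a1 on the opposite strand. Col16a1, the most abundant FACIT, had a median of 23.98 CPM in knockout LPS, 22.3 CPM in knockout PBS, 19.2 CPM in wild type LPS and 20.9 CPM in wild type PBS. Col25a1, a membrane collagen of neurons, had medians of 25.2, 28.1, 23.1 and 25.9 CPM in the same order, and Col8a1, a network collagen of vessels, 10.9, 9.79, 9.34 and 9.42 CPM. The 5 tested FACIT collagens ranged from -0.06 to 0.16 in knockout and from -0.35 to 0.28 in wild type, and the 3 tested transmembrane collagens from -0.12 to 0.59 and from -0.20 to 0.46. Col26a1 had a median of 4.18 CPM in knockout LPS, 4.79 CPM in knockout PBS, 4.996 CPM in wild type LPS and 4.69 CPM in wild type PBS.

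**Figure D3:**
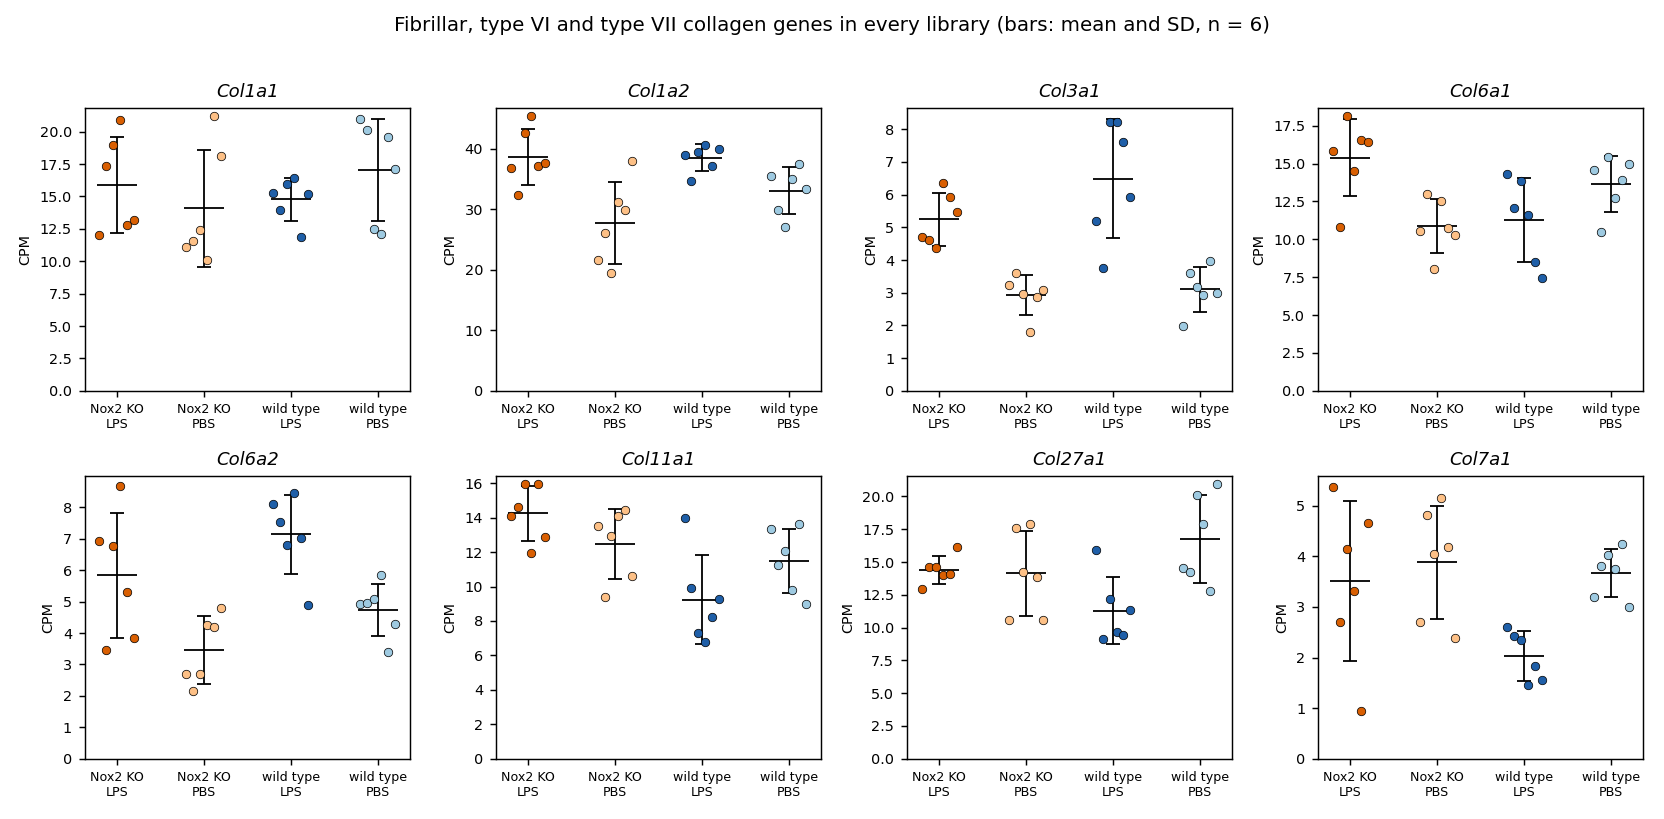
Level (CPM) of 8 fibrillar, type VI and type VII collagen genes in every library, with 1 point per animal and a bar for the mean and SD of 6 animals; groups run from Nox2 knockout LPS and PBS to wild type LPS and PBS. The groups overlap widely for Col1a1, Col3a1 is higher after LPS in both genotypes, and Col7a1 is lower after LPS in wild type.

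Between genotypes, 4 of these genes were called after LPS and 0 after PBS. After PBS, edgeR called 0 of the 43 (0.132% of all tested genes, with 0.0417% higher and 0.0904% lower). An unadjusted p under 0.05 was reached by 5 of the 43 and by 1256 of all 14380 tested genes. DESeq2 called 0 as well, leaving 21 of the 43 without an adjusted p. The 5 were Col4a1 (-0.39 ± 0.13), Col1a2 (-0.26 ± 0.11), Lamb1 (-0.26 ± 0.12), Col6a2 (-0.50 ± 0.23) and Col6a1 (-0.31 ± 0.15), all lower in knockout. After LPS, 1 gene was higher in knockout and 3 lower, where 0.264% of all tested genes were called higher and 0.786% lower, 1.05% in all. The median over the 43 was 0.01, against -0.004 over all tested genes.

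The 3 genes lower in knockout after LPS were Col4a1, Fbln5 and Col4a2, which LPS had raised in both genotypes. Col4a1 averaged 42.0 ± 4.45 CPM in knockout LPS and 66.9 ± 9.87 CPM in wild type LPS (SD, n = 6), a difference of -0.69 ± 0.10 on the log2 scale (edgeR adjusted p = 2.42e-05). This call remained in all 12 fits that each left out 1 of these libraries. Fbln5 averaged 14.0 ± 2.52 CPM in knockout LPS and 21.3 ± 4.03 CPM in wild type LPS (-0.60 ± 0.13, adjusted p = 0.0107), and its call also remained in all 12. Col4a2 averaged 22.7 ± 4.01 CPM in knockout LPS and 31.2 ± 2.35 CPM in wild type LPS (-0.46 ± 0.11, adjusted p = 0.0265), a call that was lost in 5 of the 12 fits, those without replicate 2, 3 or 5 of knockout LPS or replicate 3 or 4 of wild type LPS, with a highest adjusted p of 0.107. Col4a1 and Col4a2 were the only genes of the 43 with every knockout LPS library below every wild type LPS library, as for 0.355% of all tested genes, and none had every one above (0.313%).

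Col11a1, a fibrillar collagen of cartilage that some neurons also express, was higher in knockout after LPS. Its libraries held 11.98, 14.4 and 15.9 CPM (lowest, median, highest) in knockout LPS and 6.77, 8.76 and 14.0 CPM in wild type LPS, with overlap. The difference was 0.64 ± 0.15 (edgeR adjusted p = 0.0204) and was lost without replicate 3 or replicate 4 of the wild type LPS group or replicate 3 of the knockout LPS group (highest adjusted p = 0.0963). Lama4 (-0.56 ± 0.15, adjusted p = 0.0551), Hspg2 (-0.46 ± 0.14, adjusted p = 0.102) and Col19a1 (0.53 ± 0.15, adjusted p = 0.0687) came near the threshold. Without wild type LPS replicates 1 and 2, 10 of the 43 were called, 5 higher in knockout (Col6a1, Col9a3, Col11a1, Col11a2 and Col19a1) and 5 lower (Col4a1, Col4a2, Fbln5, Hspg2 and Lama4). Over all tested genes that fit called 565, against 151 with all libraries.

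**Figure D4:**
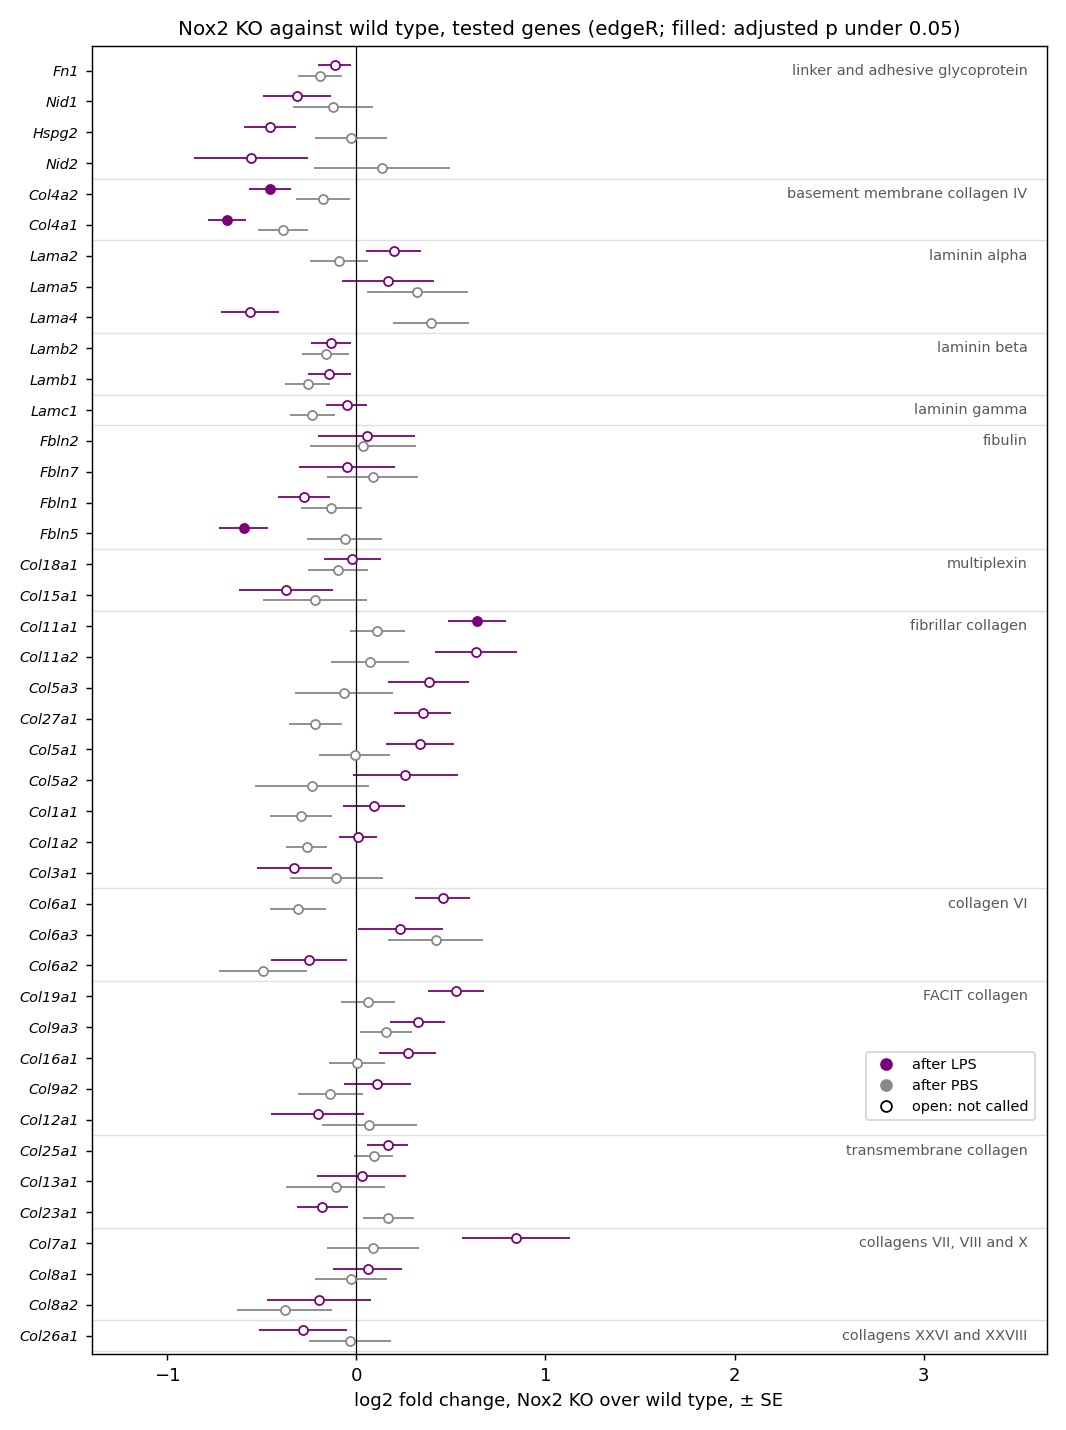
Log2 fold change of Nox2 knockout over wild type with its standard error for the tested genes, 1 left out, by class, after LPS (purple) and after PBS (grey); filled points passed an adjusted p of 0.05 in edgeR. Filled points are Col4a1, Col4a2 and Fbln5 below 0 and Col11a1 above 0, all after LPS, and no gene is filled after PBS.

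Whether the LPS change itself differed between genotypes is the interaction, taken as the change in knockout minus that in wild type. EdgeR called 0 of the 43 (0.00695% of all tested genes, which is 1 gene). An unadjusted p under 0.05 was reached by 6 of the 43 and by 1407 of all 14380 tested genes. DESeq2 called 0, giving no adjusted p for any of the 43, with 5 at an unadjusted p under 0.05. The 6 were Lama4 (-0.96 ± 0.25), Col6a1 (0.77 ± 0.21), Col27a1 (0.57 ± 0.20), Col11a1 (0.53 ± 0.21), Col19a1 (0.46 ± 0.21) and Fbln5 (-0.53 ± 0.24), with adjusted p from 0.229 to 0.452. Without wild type LPS replicates 1 and 2, Lama4 (-1.07) and Col6a1 (0.88) were called. That fit called 255 of all 14380 tested genes for the interaction, against 1 with all libraries. Col4a1 and Col4a2 stood at -0.30 ± 0.17 and -0.28 ± 0.18, so a smaller rise in knockout was not shown for either. The genotype comparisons and the interaction share libraries with the LPS comparisons and are not independent of them.

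Some markers of vascular cells and of several other cell types also changed after LPS, not all in the same direction. Of 12 endothelial markers, 11 were called higher after LPS in knockout and 12 in wild type, and their summed level was 578 to 672 CPM in knockout LPS, 296 to 377 CPM in knockout PBS, 655 to 788 CPM in wild type LPS and 322 to 360 CPM in wild type PBS. Of 9 tested pericyte and smooth muscle markers, 5 were higher after LPS in knockout and 7 in wild type, with sums of all 12 of 193 to 245, 115 to 164, 241 to 264 and 132 to 162 CPM in the same order. Of 11 tested markers of meningeal and perivascular fibroblasts, 2 were higher in each genotype, with sums of all 14 of 133 to 207, 94.998 to 136, 187 to 227 and 116 to 145 CPM. No marker of these 3 lists was at 0 over the series. After LPS, 4 endothelial markers (Esam, Cldn5, Emcn and Pecam1) and 1 pericyte marker (Rgs5) were lower in knockout than in wild type, by 0.51, 0.43, 0.58, 0.36 and 0.32. The median over the tested markers was -0.40 for the endothelial list and -0.08 for the pericyte list. Myh11 of the pericyte list stood at 0.56 ± 0.24 and was not called. The endothelial marker Ly6c1 was lower in knockout after PBS (-0.41 ± 0.08, edgeR adjusted p = 0.0141). With LPS it rose by 1.40 ± 0.08 in knockout and by 0.92 ± 0.07 in wild type.

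Of 8 microglia markers, 6 were higher after LPS in each genotype and 1 was lower in wild type, with sums of 338 to 470 CPM in knockout LPS, 194 to 229 CPM in knockout PBS, 403 to 520 CPM in wild type LPS and 203 to 250 CPM in wild type PBS. Of 8 neuron markers, 1 was lower after LPS in knockout and 3 in wild type, with sums of 4731 to 4991, 5307 to 5564, 4550 to 4854 and 5276 to 5572 CPM in the same order. Of 8 astrocyte markers, 4 were higher and 1 lower in knockout and 5 higher and 1 lower in wild type, and all 4 tested red blood cell markers were lower in both. Between genotypes after LPS, the microglia marker Cx3cr1 (-0.41 ± 0.09, edgeR adjusted p = 0.00934) and the astrocyte markers S100b (-0.22 ± 0.06) and Slc1a3 (-0.17 ± 0.04) were lower in knockout, and the choroid plexus marker Ttr was higher (0.33 ± 0.07, adjusted p = 0.00934). These were 1 of 8 microglia, 2 of 8 astrocyte and 1 of 8 choroid plexus markers. The median over each list was -0.168, -0.08 and 0.185 in the same order. Of 6 markers of olfactory neurons and bulb, 4 were lower in knockout after LPS and 3 after PBS, with summed medians of 10.2 CPM in knockout LPS, 15.6 CPM in knockout PBS, 42.7 CPM in wild type LPS and 46.9 CPM in wild type PBS. Of 6 pituitary markers, 2 were tested, and both were called higher in knockout after LPS. Replicate 4 of the knockout LPS group held 2137 CPM of the summed markers, against a group median of 11.96 CPM. The calls are not given without that library, so they are not read as a genotype difference. The part of these markers in the changes after LPS and in the genotype differences of Col4a1, Col4a2, Fbln5 and Col11a1 was not tested. In tissue RNA, fewer cells of a type and less RNA per cell cannot be told apart.

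**Figure D5:**
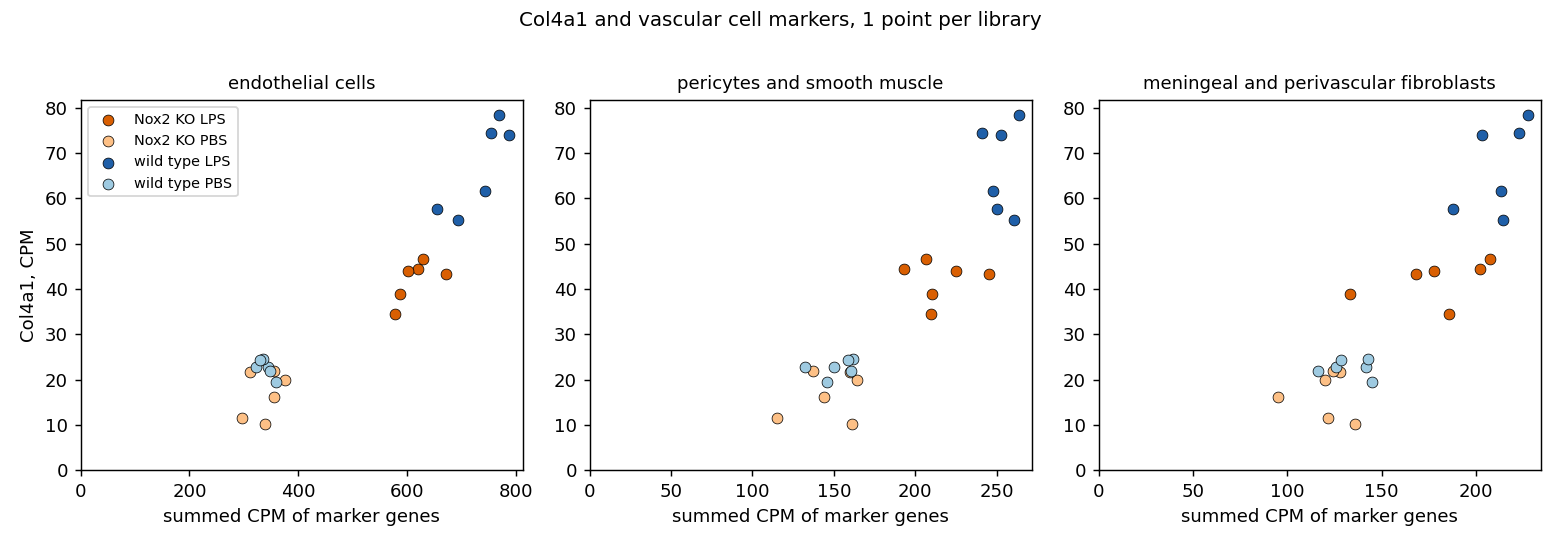
Col4a1 level (CPM) against the summed level (CPM) of 12 endothelial, 12 pericyte and smooth muscle and 14 fibroblast marker genes, with 1 point per library and colours for the 4 groups. In the endothelial panel the LPS libraries of knockout (578 to 672 CPM) and wild type (655 to 788 CPM) lie to the upper right of all PBS libraries.

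Genes that make, cut and bind the matrix changed in part. The median log2 fold change of the 5 lists that follow ranged from 0.10 to 0.21 in knockout and from 0.10 to 0.29 in wild type. Of 21 tested genes that modify or crosslink collagen, LPS raised 5 and lowered 0 in knockout and raised 6 and lowered 1 in wild type. The transglutaminase gene Tgm2 rose by 1.58 ± 0.14 in knockout and 1.84 ± 0.12 in wild type, and Serpinh1, the collagen chaperone HSP47, by 0.35 ± 0.11 and 0.87 ± 0.11. The lysyl hydroxylase gene Plod1 rose by 0.62 ± 0.08 in wild type, the collagen galactosyltransferase gene Colgalt1 by 0.28 ± 0.06 in knockout and 0.45 ± 0.06 in wild type, and P4hb, a subunit of prolyl 4-hydroxylase, by 0.27 ± 0.07 and 0.41 ± 0.07. Of 20 tested proteases and inhibitors, 5 rose and 1 fell in knockout, and 9 rose and 1 fell in wild type. Rises were called for the neutrophil collagenase Mmp8 (4.49 ± 0.56 in knockout, 4.50 ± 0.47 in wild type), the metalloproteinase inhibitor Timp1 (2.75 ± 0.36 and 2.86 ± 0.36) and the gelatinase Mmp9 (1.11 ± 0.26 and 1.99 ± 0.23), while Adamts1 rose by 0.49 ± 0.12 and 0.69 ± 0.13.

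Of 22 tested matrix receptors, 6 rose in knockout and 7 in wild type and none fell. The laminin receptor subunit Itga6 rose by 0.76 ± 0.08 in knockout and 1.06 ± 0.08 in wild type, and the collagen receptor subunit Itga1 by 0.68 ± 0.11 and 1.08 ± 0.10. Their partner Itgb1 rose by 0.46 ± 0.08 and 0.71 ± 0.08, Itgb5 by 0.54 ± 0.08 and 0.63 ± 0.08, and the syndecan Sdc4 by 0.56 ± 0.08 and 0.46 ± 0.08. Of 25 tested genes of the TGF-beta axis, 5 rose and 1 fell in knockout, and 9 rose and 1 fell in wild type. The endothelial co-receptor Eng rose by 1.47 ± 0.11 in knockout and 1.82 ± 0.11 in wild type, Tgfbi by 1.44 ± 0.23 and 2.13 ± 0.23, the receptor Tgfbr2 by 1.01 ± 0.17 and 1.25 ± 0.16 and the endothelial receptor Acvrl1 by 0.71 ± 0.15 and 1.06 ± 0.15. Ltbp4, which binds latent TGF-beta, fell by 0.42 ± 0.10 in knockout and by 0.74 ± 0.10 in wild type.

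Of 39 tested other matrix glycoproteins and proteoglycans, 9 rose and 4 fell in knockout, and 14 rose and 5 fell in wild type. Sparc, a collagen-binding protein, rose by 0.69 ± 0.06 in knockout and 1.03 ± 0.06 in wild type, the matrix Gla protein gene Mgp by 1.10 ± 0.08 and 1.13 ± 0.08, and the perlecan-binding Vwa1 by 0.86 ± 0.12 and 1.29 ± 0.11. Biglycan, Bgn, rose by 0.90 ± 0.12 and 1.26 ± 0.11, and Mmrn2, a matrix protein of endothelium, by 1.21 ± 0.15 and 1.51 ± 0.14. Between genotypes after LPS, with genes named after their values were seen, Tgm2 (-0.49 ± 0.11), Mmp9 (-0.86 ± 0.20), Itga1 (-0.46 ± 0.10), Eng (-0.39 ± 0.09), Vtn (-0.33 ± 0.08) and Vwa1 (-0.40 ± 0.10) were lower in knockout than in wild type, with edgeR adjusted p from 0.00639 to 0.0361, and no gene of these 5 lists was higher.

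The 19 genes that were not tested had 25 to 181 counts over all libraries, and mean levels of 0.285 to 1.94 CPM. They were Col2a1, Col4a3 to Col4a6, Col6a4 to Col6a6, Col9a1, Col10a1, Col14a1, Col17a1, Col20a1, Col22a1, Col24a1, Lama1, Lama3, Lamb3 and Lamc3. A fit with no filter on low counts included them. It called Col6a6 higher after LPS, by 2.19 ± 0.71 in knockout (edgeR adjusted p = 0.0424) and by 1.81 ± 0.60 in wild type (adjusted p = 0.0324). In counts over 6 libraries, Col6a6 had 21 in knockout LPS and 4 in knockout PBS, and 28 in wild type LPS and 8 in wild type PBS. Col2a1 was called lower after LPS in wild type (-1.60 ± 0.53, adjusted p = 0.0311), with 11 counts in wild type LPS and 38 in wild type PBS.

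Col6a4 was higher in knockout than in wild type after LPS in that fit, by 2.27 ± 0.57 (edgeR adjusted p = 0.0127). It had 36 counts over the knockout LPS libraries and 41 over knockout PBS, against 7 over wild type LPS and 22 over wild type PBS. That fit called 293 of 32360 genes in this comparison. Every knockout LPS library, at 0.874 to 2.697 CPM, lay above every wild type LPS library, at 0 to 0.483 CPM. The share of genes with this order, 0.313%, was taken over the 14380 filtered genes, which do not include Col6a4. After PBS the difference was not called (1.00 ± 0.45, adjusted p = 0.638).

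Correlations within groups were taken over all pairs of the 43 genes. No floor on level was set for these pairs, and counting error at low levels was not separated out. Over the 903 pairs, the median correlation of log2 CPM, after each group's mean was removed, was 0.048 over 24 libraries, and the highest were Col1a2 with Col23a1 (0.659), Fbln1 with Col1a2 (0.620) and Col6a1 with Col12a1 (0.605). For 3 genes taken as examples, the closest genes were sought only among tested genes with a mean of at least 10 CPM. By the same correlation they were Calr (0.768) for Col4a1, Zfp113 (0.770) for Col1a1 and Phka2 (0.733) for Lama2, out of 10070 or 10071 genes compared. These correlations are descriptions over libraries that share depth and group structure. The highest values were picked from all pairs or genes compared, and no other gene pairs were taken as a reference.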

How the data were processed

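QuantSeq 3′ libraries were made from 100 ng of left hemisphere RNA of each of 24 mice, per the labels' protocols. The values deposited by the authors are whole-number counts of tags per gene. The submitters' processing notes name bcl2fastq, STAR 2.7.3a, Subread 2.0.0 with featureCounts, DESeq2 1.26.0 and R 3.6.1, and the mouse build GRCm38 (mm10). Which annotation was counted, and whether strand, multiple matches or duplicates were considered, is not given in the sources used here, so overlapping genes cannot be told apart.

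Levels are counts divided by the library total, times 1000000 (CPM). Because the kit reads 1 tag per transcript, CPM was compared between genes without a length term. Library totals of 2340184 to 5256169 make 1 CPM worth 2.34 to 5.26 counts, so genes near 1 CPM carry large counting error. edgeR 4.0.16 (R 4.3.3) was fitted to all 24 libraries at once with 1 mean for each group, TMM scaling (factors 0.988 to 1.015) and the 14380 genes that filterByExpr kept. Its quasi-likelihood F test had 20 residual degrees of freedom, and Benjamini-Hochberg adjustment ran over the 14380 genes in each of 5 comparisons. The standard error beside a log2 fold change was derived as its absolute value divided by the square root of its F statistic. The calls of the fit were tested on simulated counts with known changes.

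Genes were chosen by symbol, and positions come from GENCODE M21 for GRCm38. Promoter windows and miRNAs are RefSeq sequences, and the annotated 3′ untranslated regions come from GENCODE transcripts. The genes and the lists were chosen with earlier results of these data known. Every member gene could be named; library values are given for the 10 with the smallest p for LPS in wild type, the 5 with the smallest p in knockout, those called between genotypes and the most abundant gene of each class. Of each list, the 5 genes with the smallest p in wild type are named. A member gene and a gene of the protease list that this rule would name are not reported here. Genes named outside this rule were chosen after their values were seen. Alternatives were DESeq2 1.42.0 as a test, its size factors in edgeR, library totals alone, no filter, a filter at 1 CPM in 6 libraries, only the groups compared, the replicate number as a block, and fits with libraries left out.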

Additional observations from a re-analysis of the deposited data

Results flagged for a closer look

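In each of the 4 groups, the 6 libraries of the 19 genes called in any comparison were examined for a library far from the rest, 76 groups in all. By Dixon's 95% critical value for 6 samples, chance flags about 1 in 20 groups, and 3 of the 76 were flagged. Lama4 in the wild type LPS group had its lowest library, replicate 1, at 10.1 CPM, with the next at 17.4 CPM. Nid1 in the same group was lowest in replicate 6, at 5.16 CPM, with the next at 12.6 CPM. Nid2 in the wild type PBS group was highest in replicate 1, at 4.93 CPM, with the next at 2.27 CPM. No cause was tested for these 3 values.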

How the results depend on the processing

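The numbers of these genes called after LPS (15 in knockout, 13 in wild type) and after PBS between genotypes (0) stayed within 1.5 times under every alternative run, at 14 to 16, 12 to 17 and 0. Leaving out 1 library at a time gave 14 to 16 for LPS in knockout, 12 to 16 for LPS in wild type, 0 to 0 between genotypes after PBS, 2 to 8 between genotypes after LPS and 0 to 1 for the interaction. The 4 genes called between genotypes after LPS became 7 with no filter on low counts (Hspg2, Lama4 and Col6a4 added). They became 10 without wild type LPS replicates 1 and 2. Over all genes of those fits, 293 of 32360 and 565 of 14380 were called, against 151 in the main fit. Without wild type LPS replicates 1 and 2, 2 of these genes were called for the interaction. Over all tested genes 255 were, against 1 with all libraries. Single libraries moved the genotype count after LPS by over 1.5 times. It went to 7 without replicate 1, 8 without replicate 2 and 2 without replicate 3 or 4 of the wild type LPS group. It went to 2 without replicate 3 of the knockout LPS group. In the same order, these fits called 269, 289, 94, 78 and 99 of all tested genes, against 151 with all libraries. Without wild type LPS replicate 1, Lama4 was called for the interaction, as 1 of 20 genes called in all, against 1 with all libraries. The cause was not tested. No log2 fold change of these genes that was examined changed sign.

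Same-numbered samples did not pair. The correlations of their deviations ran from -0.077 to 0.165, were not all over 0.1, and 1 of 24 libraries correlated best with its own number in every other group. With the replicate number as a block, calls among these genes were 15 for LPS in knockout, 14 in wild type, 0 between genotypes after PBS, 6 after LPS and 0 for the interaction. Over all genes they went to 1672, 2751, 39, 273 and 8, against 1564, 2596, 19, 151 and 1 without the block.

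Low depth kept 19 of the 62 genes out of the test, and changes in genes near 1 CPM could not be seen unless they were large. A filter at 1 CPM in 6 libraries kept 17056 genes and so was looser than the one used.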
